A study of Mus musculus
Rattus norvegicus and Mus musculus and Rattus norvegicus with 95 samples.

Results

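Mouse-rat allodiploid embryonic stem cells (AdESCs) are stem cells whose nucleus holds a single chromosome set from each of the species. The cells described here are the 8 single cells labelled as neurons of line RM1-1, compared with the 4 single AdESCs of the same line. They were chosen by the cell type and line named in their labels and column headers, and they are 8 of the 87 single cells and of the 95 libraries in the series. The neurons came from a mouse chimaera made with RM1-1, an animal whose tissues hold descendants of the stem cells among host cells. No label gives the chimaera's age, the brain region, the number of animals, a sort or a culture step, and no treatment is named for either group. Each group is therefore 1 sample of 1 line, and no p-value was made from cells. The wider series adds AdESCs of 3 other lines (MR1-1, MR2-1 and RM2-1), embryoid bodies (EBs, aggregates of differentiating stem cells) of RM1-1 and MR2-1, fibroblasts of MR1-1, lung cells of RM2-1 and somatic testis cells of RM1-1 and RM2-1.

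Neurons arise from radial glia, dividing progenitors that line the ventricles and hold the intermediate filament proteins vimentin and nestin and the fatty acid binding protein Fabp7. A daughter cell that becomes a neuron leaves the cell cycle, replaces its tubulins and microtubule-binding proteins with neuronal ones and builds synapses, while other descendants become astrocytes or oligodendrocytes. Sox2 encodes a transcription factor of both pluripotent stem cells and neural progenitors, and Nnat and Ndn are imprinted genes, expressed from the paternal copy, that are abundant in the developing brain.

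All values are FPKM (fragments per kilobase of transcript, scaled to the mapped fragments of the library) for 13926 mouse-rat homologues, and differences are between means of log2(FPKM + 1) over cells. The cell columns carry no number, so the neuron-labelled cells are called A to H and the AdESCs P to S in column order. These letters do not correspond to the numbers in the sample titles. Summed FPKM ran from 322166 to 376273 in the neuron-labelled cells and from 315104 to 400457 in the AdESCs, and genes at 1 FPKM or more numbered 4431 to 5474 and 5180 to 5885. Read depth cannot be read from these values, so a gene listed at 0 is reported as such and given no fold and no floor. The median over genes of the SD between cells was 1.56 log2 units in the neuron-labelled cells and 0.95 in the AdESCs. Of 942 genes with a median of at least 50 FPKM over all single cells, 30 were listed at 0 in at least 1 neuron-labelled cell and 9 in at least 1 AdESC. No pair of the 87 cells held identical values. A share of 8 of 8 cells has an exact 95% binomial interval of 63.1% to 100%, one of 4 of 8 an interval of 15.7% to 84.3%, and these cover counting error only.

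A sample used for comparison went against its label. The 4 RM1-1 cells labelled as somatic testis held Fabp7 at 345 to 1160.2 FPKM, Gap43 at 77.7 to 604 and Sox2 at 4.04 to 34.1. Their summed FPKM over 10 measured markers of somatic testis cells was 1.26 to 22.4, against 0 to 11.4 in the neuron-labelled cells. Across genes they correlated with the neuron-labelled cells at a median r of 0.649 (32 pairs, 0.590 to 0.716), while the neuron-labelled cells correlated with each other at a median r of 0.633 (28 pairs, 0.586 to 0.694). The corresponding medians were 0.777 among the AdESCs (6 pairs) and 0.556 between neuron-labelled cells and AdESCs (32 pairs, 0.513 to 0.621). The testis-labelled cells correlated with each other at a median of 0.681 (6 pairs) and with the AdESCs at 0.612 (16 pairs, 0.509 to 0.632), and the ranges of r with the AdESCs overlap between the testis-labelled and the neuron-labelled cells. These r values are across genes, and genes are not independent replicates. Counts of genes called against other tissues are given with and without that sample.

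Within the line, 7866 genes averaged 1 FPKM or more over the 12 cells. A gene listed at 0 in every cell of 1 group passed this filter only through the other group, so its direction was fixed beforehand. This limits the counts and medians of lists with many such genes. A gene was counted as different when the means differed by at least 2 log2 units and no cell of either group overlapped the other group. By that rule 174 genes were higher in the neuron-labelled cells (2.21% of the genes tested) and 277 were lower (3.52%). These shares are the background for the count of each list below. Without the condition on size, 227 genes were higher without overlap of cells (2.89%) and 357 lower (4.54%). The median difference of all genes tested was -0.09. In 65 of the 174 higher genes the 4 AdESCs were all listed at 0, and in 76 of the 277 lower genes all 8 neuron-labelled cells were. Of the 174 higher genes 124 had no neuron-labelled cell under 1 FPKM, and of the 277 lower genes 250 had no AdESC under 1 FPKM. The rest were without overlap through values under 1 FPKM, as Shisa3 was (as low as 0.0411 FPKM, against 0 in all 4 AdESCs). The counts describe these 12 cells and have no replicate check. With the 24 AdESCs of all 4 lines as the reference, 66 genes were higher and 71 lower by the same rule, of which 64 and 70 were among those of the line alone.

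**Figure D1:**
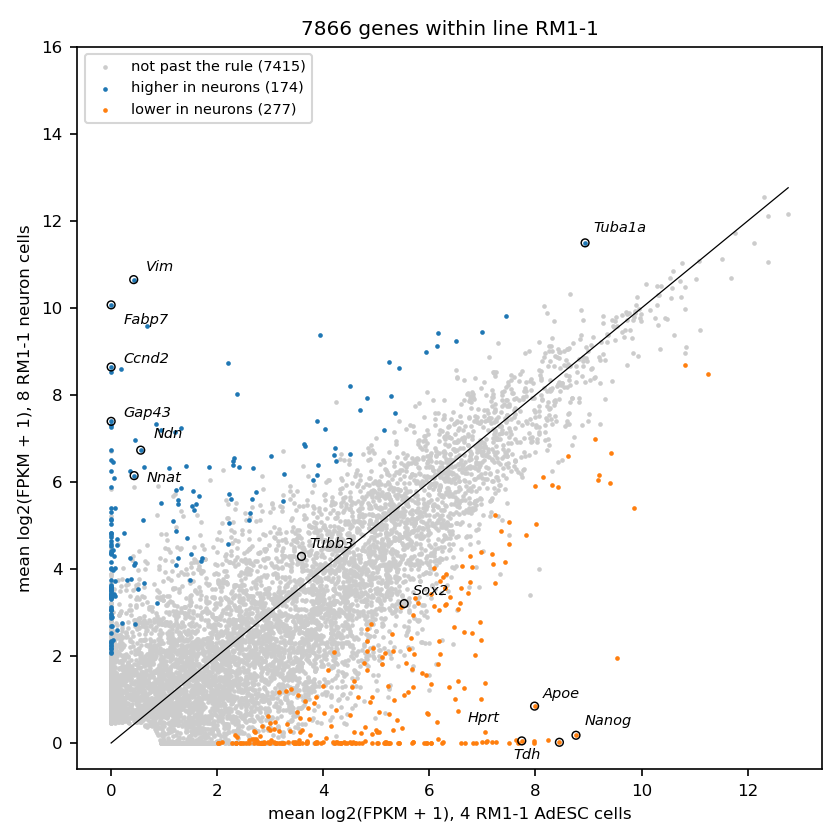
Mean log2(FPKM + 1) of 7866 genes in the 4 RM1-1 AdESCs (x axis) and the 8 RM1-1 neuron-labelled cells (y axis), each point a gene and the line marking equal means. The 174 higher genes are blue and the 277 lower genes orange. Vim and Fabp7 lie at the top left and Nanog and Tdh at the bottom right, while Sox2 and Tubb3 are not past the rule.

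The largest positive differences belonged to the radial glia genes Vim and Fabp7, which were present in all 8 cells. Vim, encoding vimentin, was 881, 2070.0, 1849.5, 1442, 1644, 1351, 2339 and 1772 FPKM in cells A to H, and in the AdESCs it was listed at 0 in P, Q and R and was 2.25 in S. Fabp7 was 528, 2737, 809, 829.5, 275, 2286, 2472 and 1179 FPKM and was listed at 0 in all 4 AdESCs. The groups were far apart for both genes, and the spread between neuron-labelled cells was small for Vim (mean log2 10.65, SD 0.44, n = 8 cells) and larger for Fabp7 (10.07, SD 1.17). Vim was not particular to these cells. It was 2351 to 3609 FPKM in the RM1-1 testis-labelled cells, 760 to 2918 in RM2-1 testis, 202 to 1063 in RM1-1 EBs and 69.8 to 1498 in RM2-1 lung. In MR1-1 fibroblasts it was 0.0758 to 1759 and in MR2-1 EBs 0.326 to 1549. Fabp7 was 345 to 1160 FPKM in the RM1-1 testis-labelled cells and at most 31.1 in any other sample. Nes, encoding nestin, ran from 7.83 to 81.7 FPKM (median 25.5) and was highest in G, against 0 to 0.329 in AdESCs. Slc1a3, the glial glutamate transporter GLAST, ran from 16.7 to 782 FPKM, with B, F and G above 500 and C lowest, against 0 to 8.53 in AdESCs.

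Of 13 measured members of the neural progenitor list, 10 were tested and these 4 were higher within the line, with none lower. The median difference of the 10 was 2.03, beside -0.09 for all genes. Of the 13 measured members 6 were listed at 0 in all 4 AdESCs and, where tested, could not be lower. Each neuron-labelled cell held 7 to 9 of the 13 members at 1 FPKM or more and each AdESC 1 to 4. Some members were at low levels throughout. Pax6, a transcription factor of cortical radial glia, and Hes5, a target of Notch signalling, were under 1 FPKM in all 12 cells. Hes1, another Notch target, was at 0.518 to 18.2 FPKM against 0.608 to 3.06, with overlap. None of the 8 tested members of the Notch pathway list passed the rule (median difference -0.07).

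Several further genes stood among the 12 with the highest differences. Ccnd2, a D-type cyclin that drives entry into the cell cycle, was 133 to 692 FPKM (median 429.7) and listed at 0 in all 4 AdESCs. It was also 92.0 to 552 FPKM in RM1-1 EBs, 427 to 1308 in the RM1-1 testis-labelled cells and 0.935 to 159 in RM2-1 testis. The secreted growth factor pleiotrophin (Ptn) was 241 to 644 FPKM and listed at 0 in all 4 AdESCs, and its SD between cells was only 0.54. Serpine2, a secreted protease inhibitor, was 116 to 916 FPKM against 0 to 0.694. The neuron-labelled cells did not overlap the AdESCs in any of these genes, and cell E had the lowest level of each except Ptn, where C was lowest. Mt3, a metallothionein of brain cells, was 418 to 1679.8 FPKM (median 737) against 5.45 in AdESC P and 0 in the other AdESCs. Ednrb, the endothelin receptor B, was 36.5 to 280.3 FPKM, and Rab31, a small GTPase of vesicle traffic, 68.5 to 438, both listed at 0 in all 4 AdESCs. Pea15a, a phosphoprotein abundant in astrocytes, was 179 to 673 FPKM against 0 to 9.87. The kinesin adaptor Fez1 was 42.1 to 362 FPKM against 0 to 2.40. The clone-named gene 2810417H13Rik was 25.6 to 268 FPKM and listed at 0 in all 4 AdESCs.

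**Figure D2:**
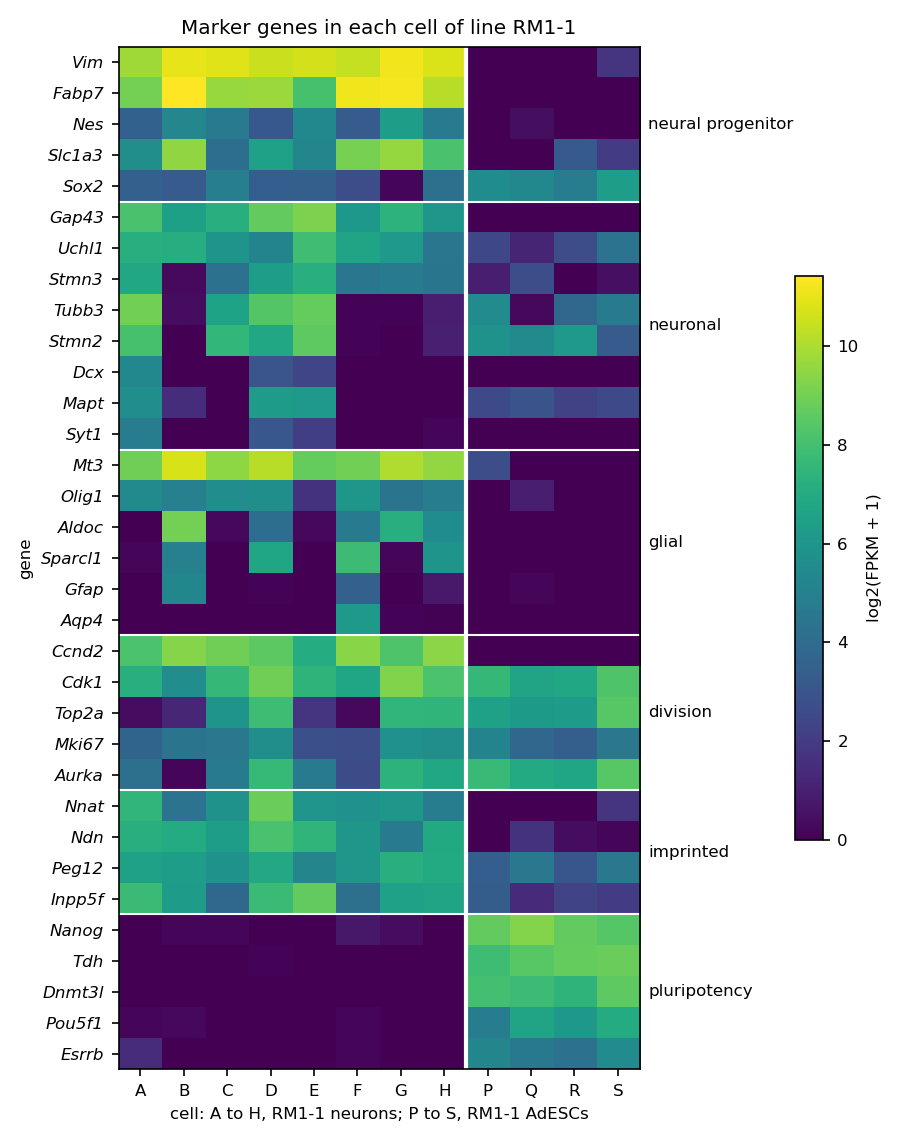
Levels of 33 marker genes (rows, grouped by role) in the 8 neuron-labelled cells A to H and the 4 AdESCs P to S (columns) of line RM1-1, coloured by log2(FPKM + 1). Vim, Fabp7, Nes and Slc1a3 fill all 8 neuron-labelled cells, Tubb3, Stmn2, Dcx, Mapt and Syt1 fill a subset that includes A, D and E, and Nanog, Tdh, Dnmt3l and Pou5f1 are under 1 FPKM in all 8 neuron-labelled cells.

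Neuronal transcripts differed more between cells. Gap43, a growth cone protein, was at 1 FPKM or more in all 8 cells: 283, 89.3, 145.01, 402, 582, 66.0, 163 and 65.0 FPKM in A to H, and 0 in all 4 AdESCs. Cells A, D and E were the highest. Tubb3, the neuronal beta-tubulin, was 502, 0.307, 98.6, 330.0, 417, 0.0903, 0.0934 and 0.969 FPKM in A to H and 44.8, 0.202, 13.3 and 25.6 in P to S. It was therefore high in A, C, D and E, under 1 in B, F, G and H, and present in 3 of the 4 AdESCs. Stmn2, a microtubule-destabilising protein of growing axons, was 269, 0, 185, 110.2, 384, 0.0867, 0 and 1.02 FPKM in A to H and 8.58 to 69.6 in AdESCs, so that it too overlapped between the groups.

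Markers of postmitotic neurons narrowed the set further. Dcx, encoding doublecortin of migrating young neurons, was 39.1 FPKM in A, 7.12 in D and 4.22 in E, at most 0.0200 in the others and 0 in all 4 AdESCs. Mapt, the axonal protein tau, was 46.9, 75.2 and 70.2 FPKM in A, D and E, 1.86 in B and under 0.1 in C, F, G and H, while the AdESCs held 3.82 to 6.69. The synaptic vesicle calcium sensor Syt1 was 27.1, 7.64 and 3.31 FPKM in A, D and E and at most 0.110 elsewhere. Cell C, high in Tubb3 and Stmn2, thus lacked these 3 genes at 1 FPKM. Rbfox3, the nuclear antigen NeuN of mature neurons, was under 1 FPKM in all 12 cells, and Nefl, the light neurofilament, was at 1 FPKM or more in only C (14.7) against 4.57 to 123 in AdESCs. Of the other members, the RNA-binding protein gene Elavl4 was 71.4 and 71.0 FPKM in D and E and at most 12.4 in the rest, and the ubiquitin hydrolase Uchl1 was higher in all 8 (21.6 to 244 against 1.28 to 19.5).

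Over the 18 measured pan-neuronal genes, 14, 7, 9, 13, 15, 7, 4 and 7 were at 1 FPKM or more in cells A to H, and 6, 6, 7 and 5 in AdESCs P to S. Their summed FPKM was 1488, 1231 and 2007 in A, D and E, 544 in C, and 151 to 289 in B, F, G and H. The AdESCs summed to 75.6 to 182, a range that holds cell H. Of the 16 members tested, Gap43 and Uchl1 were higher within the line and none was lower (median difference 1.31). Of the 18 measured members 6 were listed at 0 in all 4 AdESCs and, where tested, could not be lower. Tubb3, Dcx, Mapt and Syt1, 4 of the 18, were all at 1 FPKM or more in A, D and E. Of these 4 genes C held Tubb3 alone, B held Mapt alone, and F, G and H held none at that level. The 4 were chosen with the values known, and Tubb3 and Mapt were also present in AdESCs. Gap43 and Uchl1, of the same list, were higher in all 8 cells, so the 4 genes do not settle which cells meet the label. All 8 also held Vim, Fabp7, Nes and Slc1a3 of the progenitor list, but Pax6 and Hes5 of that list were under 1 FPKM in every cell. Vim was also high in other tissues, so these genes do not settle a cell's type either. "Neuron-labelled" is used for all 8.

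Synaptic genes were at lower levels. Of 25 measured members of the list of synaptic vesicle and postsynaptic genes, 18 were tested, 2 were higher and none lower, with a median difference of 1.40. As 17 of the 25 were listed at 0 in all 4 AdESCs, those of them that were tested could not be lower. Gria2, a subunit of the AMPA glutamate receptor, was 0.960 to 14.3 FPKM, highest in A, and was among those higher. It was listed at 0 in all 4 AdESCs and reached 1 FPKM in 7 of the 8 neuron-labelled cells. The vesicle protein Syp was 65.6 FPKM in A and 5.53 in D, and Sv2a 45.0 in A, while the obligatory NMDA receptor subunit Grin1 was listed at 0 in all 12 cells. The summed FPKM of the list was 39.9 to 338 against 0.699 to 7.34 in AdESCs.

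Transmitter genes differed between the 3 most neuronal cells. In cell A the inhibitory (GABAergic) genes Dlx1, a forebrain homeobox factor, Gad2 and Gad1, the enzymes that make GABA, and Dlx2 were at 36.4, 21.9, 5.09 and 2.34 FPKM. Cell E held Gad2 at 7.22, and no other neuron-labelled cell reached 1 FPKM for any of the 4. The excitatory genes Slc17a6, a vesicular glutamate transporter, and Neurod6, a transcription factor of pyramidal neurons, were at 7.94 and 9.31 FPKM in D and 29.7 and 8.50 in E, and at 0 in the other 6. Cell E thus held genes of both classes. The AdESCs held other members of these lists, among them Npy at 31.1 FPKM in S. Summed over the 7 measured glutamatergic genes, Q reached 14.4 FPKM against 17.3 in D, and over the 9 GABAergic genes S reached 32.9 against 7.22 in E and 66.3 in A. Slc17a6, Neurod6, Gad2 and Dlx1 were listed at 0 in all 4 AdESCs. None of the 3 tested members of either list passed the rule. Whether a cell is a doublet was not tested, and no caller was run on 8 cells.

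Tubulin genes differed in opposite directions. The alpha-tubulin Tuba1a, the main form of developing neurons, was 1735 to 4325 FPKM (median 3177) against 423, 329, 517 and 792 in the AdESCs, a difference of 2.56. Tuba1b was 513 to 1286 against 547 to 879, with overlap, and Tuba1c was lower without overlap (246 to 409.7 against 496 to 1009.6) but differed by only -1.13. Unlike Tubb3, the beta-tubulin Tubb2a was higher in all 8 cells (152 to 428 FPKM against 5.24 to 84.6). Tuba4a was 45.9 to 214 FPKM in AdESCs, 0 in 6 neuron-labelled cells and 2.53 and 0.134 in F and G. Of 11 tubulins tested, 2 were higher and 1 lower within the line, beside 2.21% and 3.52% of all genes tested. Tubb5, a beta-tubulin of most tissues, did not pass (480.3 to 1296 against 523 to 1107).

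The coding sequences show which of these genes short reads can tell apart, so the last 60 coding bases of 4 beta-tubulins, stop codon included, are printed here from the GENCODE vM21 transcripts (GRCm38), 5′ to 3′. Capitals mark bases that differ from Tubb5 in a global alignment of the whole coding sequences.
Tubb3: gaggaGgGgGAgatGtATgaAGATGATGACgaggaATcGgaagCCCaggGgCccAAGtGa
Tubb2a: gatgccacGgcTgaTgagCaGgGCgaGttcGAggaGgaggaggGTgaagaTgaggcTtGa
Tubb2b: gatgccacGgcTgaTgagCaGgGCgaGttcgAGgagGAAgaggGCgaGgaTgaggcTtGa
Tubb5: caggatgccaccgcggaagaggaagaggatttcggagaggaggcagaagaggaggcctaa
The end of Tubb3 differs from that of Tubb5 at 29 of 60 bases, its coding sequence is at most 83.6% identical to those of Tubb2a, Tubb2b, Tubb4b and Tubb5, and the longest run it shares with any of them is 45 bases. Tubb2a and Tubb2b are 96.5% identical with a shared run of 551 bases, and Tuba1a and Tuba1b are 98.3% identical with a shared run of 281 bases. How the authors' counting split reads between such copies, and between the mouse and rat genes, is not stated, so the values of Tuba1a, Tuba1b, Tuba1c, Tubb2a and Tubb2b are uncertain as single genes.

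Several genes for proteins that bind microtubules or shape growth cones were higher. Of 17 tested members of that list 5 were listed at 0 in all 4 AdESCs and could not be lower. Of the 17, 5 were higher within the line, beside 2.21% of all genes tested, and none lower (median difference 1.96). Beside Gap43 these were Map1b (83.3 to 266 FPKM against 0 to 9.07), Dpysl2, which binds tubulin in growing axons (129 to 363 against 0.128 to 9.24), its relative Crmp1 (0.955 to 130.4, listed at 0 in all 4 AdESCs) and the actin-binding substrate Marcks (357 to 1234 against 63.8 to 213). Within the neuron-labelled group Crmp1 was highest in E and lowest in B, and Map1b highest in D and E. Stmn1 was 3041 FPKM in A and 2104 in E, at most 962 in the others, and 362 to 657 in AdESCs.

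The astrocyte markers Gfap and Aqp4 were held by cells B and F alone among the 8. Aldoc, a glycolytic enzyme of astrocytes, was 529 FPKM in B, 144.6 in G, 46.2 in H, 25.2 in F and 16.7 in D, under 1 in A, C and E, and 0 in all 4 AdESCs. Gfap, the astrocyte filament protein, was 36.9 FPKM in B and 10.2 in F and under 1 in the other 6. Aqp4, the water channel of astrocyte endfeet, was 71.8 FPKM in F and under 0.1 elsewhere. F thus carried both and B carried Gfap, on top of Vim, Fabp7, Nes and Slc1a3. The matricellular protein gene Sparcl1 was 227, 104, 59.3 and 30.3 FPKM in F, D, H and B and under 1 in the rest. Of 11 measured astrocyte genes, 5, 8, 3, 6, 5, 9, 5 and 6 were at 1 FPKM or more in A to H and 2 to 4 in the AdESCs. Of the 9 tested, Slc1a3 and Mt3 were higher and Apoe was lower (0 to 27.7 FPKM against 225 to 276 in AdESCs), with a median difference of 2.97. Of the 11 measured, 5 were listed at 0 in all 4 AdESCs and, where tested, could not be lower. Apoe, the main lipid carrier of mature astrocytes, was at 1 FPKM or more in only B and F.

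The oligodendrocyte lineage was represented by its early factors. Olig1, a transcription factor of that lineage and of ventral progenitors, was 42.3, 30.5, 47.5, 50.7, 2.19, 65.0, 19.8 and 27.7 FPKM in A to H and at most 0.954 in AdESCs, so the groups did not overlap and E was lowest. Olig2 was 37.6 FPKM in F and at 1 FPKM or more in A, B, C, D and G, with E and H under 1. Sox10, Mag and Gpr17, genes of committed oligodendrocytes or their precursors, were under 1 FPKM in all 12 cells and Mog was listed at 0 in all 8 neuron-labelled cells. Of 5 genes tested on this list 1, Olig1, was higher, beside 2.21% of all genes tested. Of the 12 measured members 6 were listed at 0 in all 4 AdESCs and, where tested, could not be lower.

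Genes of division were present in every neuron-labelled cell and highest in D, G and H. Of 17 measured genes of G2 and mitosis, 16, 11, 17, 17, 14, 13, 17 and 17 were at 1 FPKM or more in A to H, and all 17 in each AdESC. Their summed FPKM was 3237 in D, 2592 in G and 2039 in H, 1009 in C, 867 in A, 706 in B, 543 in F and 490.0 in E. The AdESCs summed to 981 to 3132, so D lay above the range of the stem cells, C, G and H within it and A, B, E and F under it. Top2a, the topoisomerase of mitotic chromosomes, was 234, 182 and 177 FPKM in D, G and H, 59.6 in C and at most 2.35 in the others. Cdk1, the mitotic kinase, was 486 and 608 FPKM in D and G and 47.1 in B, the lowest, against 101.1 to 313 in AdESCs. Cell D was therefore high both in neuronal transcripts and in those of mitosis, whereas E, highest in neuronal transcripts, had the lowest sum of mitotic ones. No phase was called.

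Replication genes gave another order. The summed FPKM of 17 genes of G1 and S phase was 1562 in B, 1495 in H and 1254 in E, and lowest in F (485), where 9 of 17 genes reached 1 FPKM. The helicase subunit gene Mcm6 was the 1 member past the rule, being lower (0.914 to 95.7 FPKM against 100.8 to 259.9). The median difference of the tested members was -1.32 for the G1 and S list (17 tested) and -1.40 for the G2 and mitosis list (17 tested, none past the rule). Of 9 tested cyclin D and cell cycle exit genes Ccnd2 alone passed, and the arrest genes Cdkn1a and Cdkn1c were at most 8.60 and 20.2 FPKM.

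**Figure D3:**
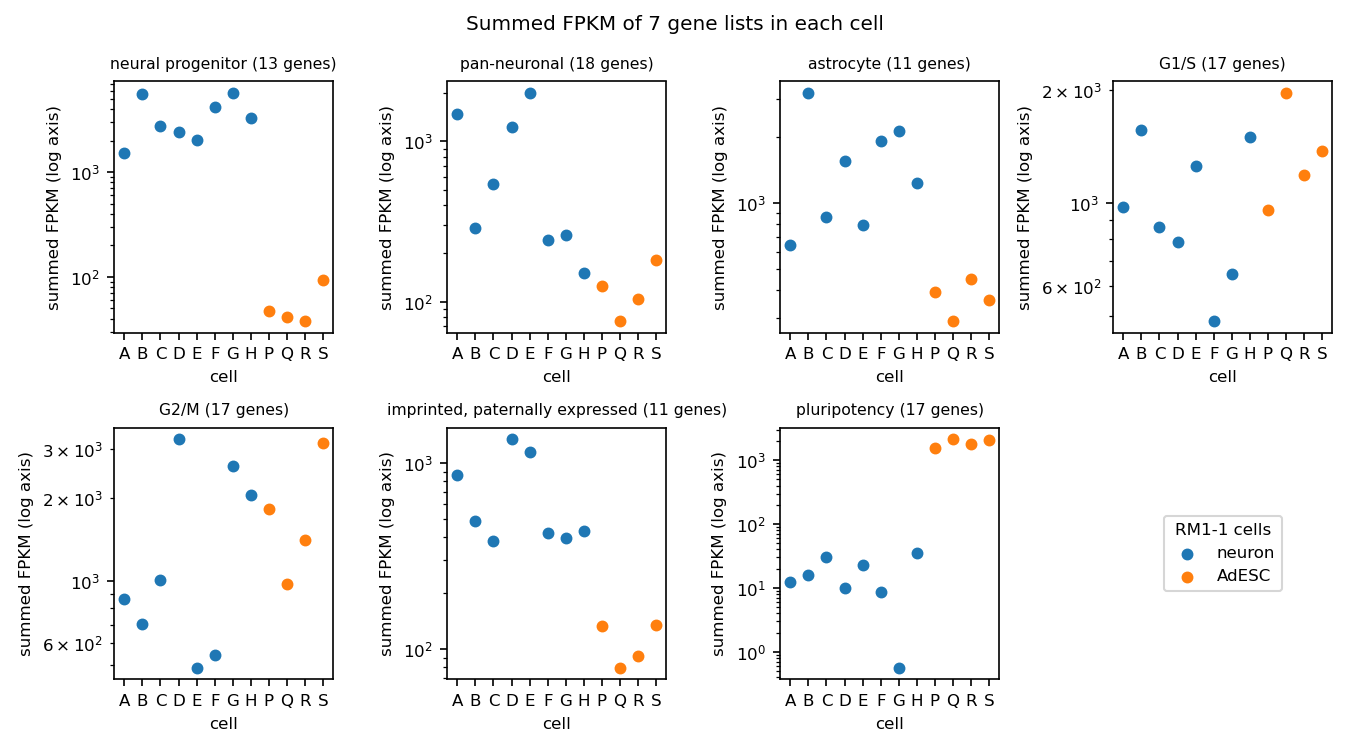
Summed FPKM (log axis) of 7 gene lists in each RM1-1 cell, blue for the 8 neuron-labelled cells A to H and orange for the 4 AdESCs P to S. The progenitor, astrocyte, paternally expressed imprinted and pluripotency lists separate the groups. The pan-neuronal list is highest in A, D and E, and the list of G2 and mitosis is highest in D, G and H among the neuron-labelled cells.

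Sox2 was present in 7 of the 8 cells at levels mostly under those of the AdESCs. It was 10.2, 8.69, 28.5, 9.71, 10.1, 5.57, 0.120 and 17.6 FPKM in A to H and 46.0, 39.5, 26.7 and 84.4 in P to S. Cell C lay above AdESC R, so the groups overlapped, and G was near 0. The means were 3.20 (SD 1.39, n = 8 cells) and 5.52 (SD 0.68, n = 4 cells), a difference of -2.32, with 7 of 8 and 4 of 4 cells at 1 FPKM or more. In RefSeq's GRCm38 annotation Sox2 lies on chromosome 3 from 34649995 to 34652461. Sox2 was listed at 0 in all lung, fibroblast and RM2-1 testis cells, and its highest value in the 17 EB cells was 1.78.

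Nnat and Ndn were high in every neuron-labelled cell. Nnat, which encodes the membrane proteolipid neuronatin, was 185, 19.3, 54.9, 465.95, 61.7, 53.9, 65.1 and 27.2 FPKM in A to H, 0 in AdESCs P, Q and R and 2.33 in S. Ndn, which encodes the growth suppressor necdin, was 141, 131, 84.0, 280.4, 179, 64.4, 24.6 and 119.9 FPKM and 0, 2.22, 0.303 and 0.117 in P to S. Cell D was highest for both, and neither gene overlapped between the groups. Their differences were 5.71 and 6.17, with 8 of 8 neuron-labelled cells and 1 of 4 AdESCs at 1 FPKM or more for each. Nnat lies on chromosome 2 from 157560078 to 157562525 (GRCm38, RefSeq), inside the span of Blcap, and none of its 28 exon entries in GENCODE overlaps an exon of Blcap. Blcap itself was 0 to 62.5 FPKM in neuron-labelled cells and 0 to 37.1 in AdESCs, with overlap. Ndn lies on chromosome 7 from 62348277 to 62349928.

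Both genes were also present in other samples of the series. Ordered by the mean of log2(FPKM + 1), Nnat was 6.15 (SD 1.45, 8 cells) in the neuron-labelled cells, 5.40 (SD 1.24, 5 cells) in RM1-1 EBs and 5.20 (SD 1.02, 4 cells) in the RM1-1 testis-labelled cells, which differ by less than those SDs. It was 2.54 (SD 1.75, 20 cells) in RM2-1 testis and 0.43 to 1.46 in the other 7 samples. Ndn was 7.73 (SD 0.68) in the RM1-1 testis-labelled cells, 6.73 (SD 1.05) in the neuron-labelled cells, 6.55 (SD 0.67) in RM2-1 testis, 5.76 (SD 0.50) in RM2-1 lung and 4.82 (SD 1.67) in RM1-1 EBs. The neuron-labelled cells and RM2-1 testis thus did not differ in Ndn beyond their spread. The 4 AdESC samples lay at 0.43 to 0.92 for Nnat and 0.56 to 2.29 for Ndn. The bulk RM1-1 AdESC library, in a table normalized separately, held Nnat at 15.8, Ndn at 5.44, Vim at 92.2 and Pou5f1 at 675 FPKM, while the single AdESCs held Pou5f1 at 28.0 to 128.

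**Figure D4:**
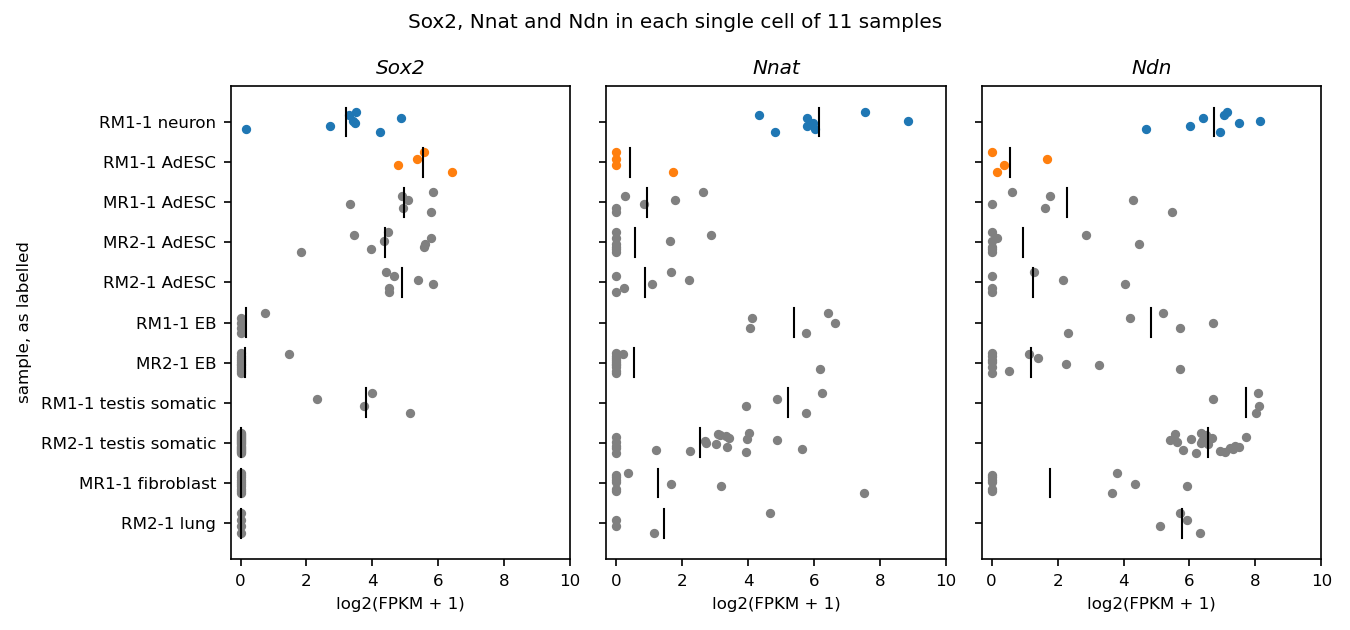
Log2(FPKM + 1) of Sox2, Nnat and Ndn (x axes) in each single cell of the 11 samples (y axis, as labelled), with a black line at each sample's mean. RM1-1 neuron-labelled cells (blue) lie above all RM1-1 AdESCs (orange) for Nnat and Ndn, and the RM1-1 EB and testis-labelled samples hold both genes too.

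Of 9 tested paternally expressed imprinted genes 4 were higher, Nnat, Ndn, Peg12 and Inpp5f, and none lower, with a median difference of 2.49. Among all genes tested 2.21% were higher and 3.52% lower. Nnat and Ndn had also been named on their own. Of the 11 measured members of the list 4 were listed at 0 in all 4 AdESCs and, where tested, could not be lower. Peg12 was 35.2 to 145.9 FPKM (median 88.2) against 9.53, 22.6, 7.29 and 23.0, and Inpp5f, a phosphatase gene with imprinted brain transcripts, was 13.5 to 407 against 1.68 to 9.19, highest in E and lowest in C. Nap1l5 was 0 to 151 FPKM, listed at 0 in G and in all 4 AdESCs, and did not pass. Snrpn, an imprinted splicing factor gene, did not pass either (6.64 to 64.0 against 18.8 to 41.2, difference -0.02). Among 8 tested maternally expressed genes 1 was higher, Gatm, an enzyme of creatine synthesis (15.0 to 225 FPKM against 0 to 12.9), and the median was -0.47. The parental copy from which a transcript came cannot be read from these values.

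Neural transcription factors formed a common core with a variable fringe. Of 18 tested members 6 were higher and none lower, with a median difference of 2.17. Of the 28 measured members 18 were listed at 0 in all 4 AdESCs and, where tested, could not be lower. Sox11, a factor of immature neurons and progenitors, was 12.6 to 236 FPKM against at most 0.0665, highest in A and lowest in F. The nuclear factor I genes Nfia and Nfib, which act in glial and neuronal maturation, were 5.38 to 127 and 71.3 to 182 FPKM against at most 0.114 and 21.9. Tcf4 was 13.9 to 58.7, Pou3f2, the neuronal factor Brn2, 0.126 to 27.2 and the homeobox gene Meis1 0.0734 to 76.7 FPKM, the last with G and H under 0.1. The 16 measured Hox genes, which mark hindbrain and spinal cord, summed to at most 0.110 FPKM per neuron-labelled cell, and none passed the filter. Rest, the repressor of neuronal genes, was 8.30 FPKM in A, 1.79 in F and under 1 in the other 6, against 6.16 to 16.2 in AdESCs, and the overlap through A kept it outside the rule.

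The lower genes were led by those of pluripotency. Nanog was 404, 626, 407 and 344 FPKM in the AdESCs and at most 0.649 in the neuron-labelled cells. Tdh, a threonine-degrading enzyme of mouse stem cells, was 231 to 441 against at most 0.0925, and Dnmt3l, a cofactor of de novo DNA methylation, 172 to 383 against 0 in all 8. Pou5f1 was 28.0 to 128 against at most 0.188. Of 17 tested pluripotency genes 6 were listed at 0 in all 8 neuron-labelled cells and could not be higher. Of the 17, 15 were lower, beside 3.52% of all genes tested, and none higher (median difference -5.30). The exceptions were Sox2 and Nr5a2, which reached 1 FPKM in only AdESC S (19.4). Low levels of Klf4 persisted in B, E and H (6.74, 6.99 and 13.8 FPKM). Summed over the list, the neuron-labelled cells held 0.565 to 34.8 FPKM, Sox2 included, and the AdESCs 1551 to 2114.

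Nanog, Tdh and Dnmt3l were among the 12 genes with the lowest differences. So was Lefty1, a Nodal inhibitor that is also on the pluripotency list (144 to 223 FPKM in AdESCs and 0 in all 8). Outside that list, Mylpf, a myosin light chain, was 232 to 582 FPKM in AdESCs, Ifitm1 204 to 378, the lysophosphatidic acid receptor Lpar2 166 to 259.6 and the peroxidase Gpx2 128 to 397. Tex19.1, a gene of germ cells and stem cells, was 88.7 to 276 and the growth factor Gdf3 75.5 to 293. None of these 6 reached 0.5 FPKM in a neuron-labelled cell. Plp2 was 649 to 913 FPKM in AdESCs and still 19.9, 21.9 and 70.9 in B, C and H. Hprt, an enzyme of purine salvage, was 214, 210.2, 216 and 213 FPKM in the AdESCs and at most 0.142 in the neuron-labelled cells.

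Chromatin, metabolic and adhesion genes were lower in part, where 3.52% of all genes tested were lower and 2.21% higher. Of 8 tested DNA methylation genes 4 were lower: Dnmt3l, the methyltransferase Dnmt3b (3.13 to 22.4 FPKM in AdESCs, at most 0.332), Zfp57 (38.2 to 219, at most 27.4) and its partner Trim28 (192 to 331 against 2.71 to 77.9), which together guard imprints. The maintenance enzyme Dnmt1 overlapped between the groups. Of 13 tested glycolysis genes 3 were lower, Pkm (105 to 735 FPKM against 1421 to 2435), Hk2 and the glucose transporter Slc2a3, with a median of -1.22. Among 10 tested adhesion genes the epithelial cadherin Cdh1 was 15.7 to 28.3 FPKM in AdESCs and 0 in all 8, Epcam 61.7 to 188 against at most 0.0764, and the neural cadherin Cdh2 was higher (12.5 to 82.2 against 1.77 to 6.60). No member passed among 10 tested neural RNA-binding genes or 9 tested subunits of the BAF chromatin complex. Of 10 tested immediate early and stress genes 1 was lower, Jund, and Fos was highest in B (131 FPKM).

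Several markers that define blood, endothelial and fibroblast cells were under 1 FPKM. Of the 12 microglia and leukocyte genes, 9, among them Csf1r, Cx3cr1 and Ptprc, were under 1 FPKM in all 12 cells, the list summed to 0 to 25.9 FPKM in neuron-labelled cells against 6.62 to 55.9 in AdESCs, and Cd14 was 18.9 and 22.7 FPKM in C and F. The erythroid genes Slc4a1 and Hemgn were listed at 0, and the endothelial gene Cdh5 was under 1 FPKM in all 12 cells. The 7 measured endothelial genes summed to 0 to 4.93 FPKM in neuron-labelled cells, highest in C, against 14.1 to 43.2 in AdESCs. Col1a1, Col3a1, Dcn and Lum, which define fibroblasts, were under 1 FPKM in all 12 cells, although the 11 genes of the fibroblast list, S100a6 and Fn1 included, summed to 2.06 to 279 FPKM against 37.7 to 104. The part of other cells in the results was not tested. Laptm5, Pecam1 and Folr1 were lower, each listed at 0 in all 8 neuron-labelled cells and present in all 4 AdESCs, and Tagln was higher (0.189 to 447 FPKM, highest in F, listed at 0 in all 4 AdESCs). Tagln, an actin-binding gene of smooth muscle, was the 1 tested member of the mural (vessel wall) list, whose 6 measured genes summed to 0.189 to 447 FPKM in neuron-labelled cells against 0 to 0.130 in AdESCs. Among the other mural genes Rgs5 was listed at 0 and Pdgfrb was under 0.1 FPKM in all 12 cells. The ependymal gene Ccdc153 was 41.9 FPKM in B alone. No tested member of the fibroblast (4) or somatic testis (2) lists passed.

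The genes that varied most among the neuron-labelled cells separated individual cells. Beside Tubb3, Stmn2, Top2a, Aldoc and Sparcl1 they included the secreted protein genes Lcn2 and Ccl20 and the chemokine gene Ccl2, which were 899, 458 and 950.3 FPKM in F. Lcn2 was at most 0.182 in the other cells, Ccl20 was 35.3 in G and 0 in the rest, and Ccl2 was next highest in E (42.9). Cell F, which also held Aqp4, Gfap and the most Tagln, was thus apart from the others in these genes. Shisa3 was 269.9, 152, 141 and 30.1 FPKM in D, F, C and A and under 1 in the rest. Car3, a carbonic anhydrase, was 296 and 135 FPKM in H and B and 0 in A, C and E. The annexin gene Anxa1 was 228, 108 and 96.9 FPKM in E, C and B, and Dap was highest in B (256) and listed at 0 in A and D.

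The neuron-labelled sample was then tested against AdESC samples of all 4 lines. Each sample entered as the mean of log2(FPKM + 1) over its cells, and 8421 genes were fitted with limma over 11 samples in 6 groups, with p-values adjusted by Benjamini-Hochberg over all of them. The lone neuron sample has no replicate and is assumed to vary like the AdESC, EB and testis samples. The testis samples are far apart in some neural genes. Gap43 averaged 7.38 log2 units in the RM1-1 and 0.19 in the RM2-1 testis sample, and Fabp7 9.63 and 0.62. The SEs of such genes hold that gap, which limits what a failure to pass means for them. No label says that samples of a group came from separate cultures or animals, so the spread behind these p-values may be technical. At an adjusted p of 0.05, 233 genes were higher (2.77%) and 244 lower (2.9%) than in AdESCs, and the median difference of all genes was -0.05. Vim rose by 9.17 (SE 1.30, limma adjusted p = 0.00696), Fabp7 by 9.93 (SE 2.42, adjusted p = 0.0467) and Ndn by 5.47 (SE 1.20, adjusted p = 0.0331). Nnat differed by 5.45 (SE 1.55) and Gap43 by 7.38 (SE 1.95) and did not pass (limma adjusted p = 0.0772 and 0.0612), nor did Sox2 (difference -1.73, SE 1.17, limma adjusted p = 0.442). Nanog (-8.51, SE 0.60, limma adjusted p = 0.000696) and Pou5f1 (-6.10, SE 0.58, adjusted p = 0.00109) fell.

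By list, 13 of 17 pluripotency genes and 4 of 8 DNA methylation genes fell and none rose in this fit. Among neural lists 1 of 13 pan-neuronal genes (Elavl4), 5 of 11 synaptic, 2 of 9 progenitor, 5 of 15 microtubule-binding and growth cone, and 5 of 15 transcription factor genes rose and none fell. Of 9 paternally expressed imprinted genes 2 rose (Ndn and Nap1l5). No gene of the G1 and S or the G2 and mitosis lists passed. The samples of a line share that line, and with line as a block the counts were 3 higher and 13 lower. Under the block Nanog still passed (-8.44, limma adjusted p = 0.0490), as did Hprt, Gdf3, Mylpf, Plp2, Rab31, Tfcp2l1, Tuba4a and Zfp57, and Vim (8.47), Fabp7 (7.93), Ndn (5.00) and Pou5f1 (-6.18) did not (limma adjusted p = 0.0835, 0.180, 0.151 and 0.0512). Leaving out the AdESC sample of MR1-1, MR2-1, RM1-1 or RM2-1 gave 69, 78, 75 and 77 higher and 122, 123, 114 and 118 lower. Without the RM1-1 testis-labelled sample 417 were higher and 315 lower, and without the RM2-1 testis sample 480 and 321.

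Against the mean of the EB, testis, fibroblast and lung groups, 5 genes passed in the same fit (0.0594% of 8421), all higher, and none lower, with 1052 at an unadjusted p under 0.05 and a median difference of all genes of 0.12. The 5 were Olig1 (4.62, SE 0.54), Shisa3 (3.37, SE 0.35), Fgfbp3 (2.50, SE 0.29), the potassium channel interactor Kcnip3 (2.45, SE 0.26) and Sez6 (2.50, SE 0.32), with limma adjusted p of 0.0209 for the first 4 and 0.0341 for Sez6. Fgfbp3, Kcnip3 and Sez6 are named for passing this test. Each of the 5 was at 1 FPKM or more in 4 to 8 of the neuron-labelled cells, from 4 for Shisa3 to 8 for Olig1. In the AdESC group their means of log2(FPKM + 1) were 0 to 0.174, and in the other tissues 0.0506 to 0.245. The 5 genes thus reached the filter mostly through the neuron-labelled sample, and their SEs came from groups near 0. Within the neuron-labelled sample Kcnip3 ran from 0 to 68.5 FPKM and Shisa3 from 0.0411 to 269.9. This contrast shares the neuron sample with the one against AdESCs, so the 2 are not independent. With line as a block no gene passed in either direction. Leaving out 1 neuron-labelled cell gave 5 to 17 higher genes, the most without E. Fabp7 (8.23, SE 2.36, limma adjusted p = 0.221), Gap43 (6.28, SE 1.90, limma adjusted p = 0.243), Nnat (3.76, SE 1.51, limma adjusted p = 0.348) and Sox2 (2.69, SE 1.14, limma adjusted p = 0.370) did not pass.

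Of the samples left out in turn, the RM1-1 testis-labelled one moved that contrast most, to 256 genes higher (3.06% of 8376) and 108 lower (1.29%). That sample was singled out because its cells held Fabp7, Gap43 and Sox2, so calls among neural genes in the fit without it are not independent of that choice and are not given. With it kept, no gene of the pan-neuronal (13 tested), synaptic (11), progenitor (9), transcription factor (15) or paternally expressed imprinted (9) lists passed against the other tissues. Without it the differences were 3.17 (SE 0.56) for Sox2, 4.09 (SE 1.57) for Nnat and 2.46 (SE 1.31) for Ndn. Whether these passed is left out, as for the neural genes above. Without the RM2-1 testis sample the counts were 147 and 31, without the AdESC sample of any 1 line no gene was higher, and without the fibroblast or the lung sample 3 were.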

How the data were processed

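FastQC (0.10.1), TopHat2 (version 2.0.10) and Cufflinks (version 2.1.1) are named, per the submitters' processing notes, with the builds mm10 and rn5. The authors deposited FPKM per gene and cell; how mouse and rat values were joined is not given in the sources used here, and read depth is unknown. FPKM were used as deposited, with a pseudocount of 1 and a filter at a mean of 1 FPKM. Sample means entered limma (version 3.58.1, R version 4.3.3) with trend, two-sided, with 5 residual degrees of freedom. The main fit held no term for line, and line entered as a block only in an alternative fit. Deviations of samples of the same line from their group means correlated across genes at -0.032 to 0.029 over 4 pairs. The EB and testis groups hold a single pair of samples each, whose deviations mirror each other. These values are therefore not independent and do not decide whether line can be left out. Coding sequences were aligned with Biopython 1.88. Genes were named as follows: Sox2, Nnat and Ndn, the 12 genes with the largest difference in each direction past the within-line rule, the 12 most variable among neuron-labelled cells with a mean of at least 10 FPKM there, and members of 31 lists (374 of 468 genes measured). Blcap, Fgfbp3, Kcnip3, Sez6 and the X-linked genes of the closing section were named after their values were seen. Members and lists were chosen with earlier results of these data known. Alternatives covered the pseudocount, filters, scaling, the rule, the reference cells, the line block and each cell or sample left out. Some members of the lists are not reported here by name.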

Additional observations from a re-analysis of the deposited data

Results flagged for a closer look

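Of 78 sets of per-cell values (cell measures, summed lists and named genes that averaged 1 FPKM or more in the group), 9 held 1 cell far from the rest by Dixon's ratio. The ratio's nominal rate of 5% does not apply to them. Some of the genes were chosen for their spread among these same cells, and some lists hold a gene that was also tested alone. The flags are therefore descriptions. In neuron-labelled cell G, Sox2 was 0.120 FPKM against 5.57 to 28.5 in the others, and the pluripotency list, which holds Sox2, summed to 0.565 FPKM against 8.59 to 34.8. In cell E the oligodendrocyte list summed to 2.31 FPKM against 30.1 to 162 in the others. In cell A the glycolysis list summed to 2266 FPKM against 3179 to 3935. Lcn2 was 898.6 FPKM in cell F and at most 0.182 elsewhere. Among the AdESCs, cell S held Top2a at 345.8 FPKM against 73.0 to 93.1 and Mylpf at 582.2 against 232.2 to 255.9, and its synaptic list summed to 0.699 against 6.37 to 7.34. AdESC P held Mt3 at 5.45 FPKM and the other 3 AdESCs held none.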

How the results depend on the processing

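Within the line, dropping the condition that cells do not overlap gave 546 higher and 827 lower genes, and taking the 24 AdESCs of 4 lines as the reference gave 66 and 71. Leaving out a cell gave 184 to 211 higher and 295 to 384 lower, fewer cells being left to overlap. The median correlation among neuron-labelled cells was 0.572 over genes averaging 5 FPKM or more and 0.576 with a pseudocount of 0.1. Against AdESCs, no filter gave 584 higher, line as a replicate block 3 higher and 13 lower, and leaving out a sample or cell 69 to 480 higher and 114 to 321 lower. Against the other tissues, genes higher numbered 0 with a pseudocount of 0.1, 384 without a filter (128 lower), 11 on the log2 of the mean FPKM (1 lower), 0 with the block, and 0 to 256 (0 to 108 lower) with a sample or cell left out. No called difference of a named gene changed sign among the alternatives run. Of the alternative values of named genes, 76 of 1760 within the line moved by more than 1 SD between cells, and 292 of 1690 against AdESCs no longer passed. The cause of each change was not tested. With 1 neuron sample, cell type and animal cannot be told apart, and FPKM without depth limits what a value of 0 means.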

Other observations

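X-linked genes were looked at after Hprt had been seen among the genes with the lowest differences, so the following are values with no test. Of 262 X-linked genes tested within the line 26 were lower (9.92%) and 7 higher (2.67%), with a median difference of -0.55. Of 7594 genes matched to other chromosomes 251 were lower (3.31%) and 167 higher (2.2%), with a median of -0.08. Chromosomes came from RefSeq's GRCm38 gene table. Of 69 X-linked genes at 20 FPKM or more in all 4 AdESCs, 5 were under 1 FPKM in all 8 neuron-labelled cells, against 30 of 1407 on other chromosomes. They were Hprt, Bex4, Mageb16, Pnma5 and Prickle3. The first 4 were also under 1 FPKM in all 63 differentiated cells of the series, and Prickle3 was at 1 FPKM or more in 14 of them.

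Hprt in the 4 RM1-1 AdESCs was 214, 210.2, 216 and 213 FPKM, an SD of 0.015 log2 units. None of the 481 genes within 1 log2 unit of its level had a lower SD between these 4 cells, and their median SD was 0.43. In the 24 AdESCs of all 4 lines the lowest Hprt value was 67.0 FPKM and the median 184, and the highest value in the 63 differentiated cells was 0.144. How the authors joined mouse and rat values of this gene is not given in the sources used here, and its part in this pattern was not tested.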
